A study of Homo sapiens with 15 samples.

Results

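HepG2, a human line established from a hepatocellular carcinoma, was given mRNA coding for enhanced green fluorescent protein (eGFP) that had either been strongly cloaked or left non-cloaked, and the difference between those groups is described here across all expressed genes. The comparison used 6 of the 15 libraries in the series, chosen by their labels: 3 strong-cloaked and 3 non-cloaked, all biological replicates. Strong-cloaked mRNA had been exposed to the reagent CR-3 at 1 M for 2 h at 37 °C, and non-cloaked mRNA is listed with no CR-3 step. Both groups received 1 µg of mRNA with a lipid nanoparticle transfection reagent, carried the wild-type genotype of the line and were lysed 48 h later. Weak-cloaked cells (mRNA exposed to 0.1 M for 0.5 h at 25 °C), medium-cloaked cells (0.5 M for 1 h at 30 °C) and untransfected cells shared the statistical fit and are cited for context. Reagent concentration, time and temperature differed together between the grades, and the labels do not say whether the non-cloaked mRNA was incubated without reagent, so effects of these steps cannot be told apart. The labels do not say what CR-3 adds to the RNA, and no eGFP row was analysed here, so neither delivery of the mRNA nor its translation was measured.

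Cells take up mRNA in lipid nanoparticles by endocytosis, and a fraction escapes from endosomes into the cytosol, where ribosomes translate it until it is degraded. RNA made outside the cell can be bound by sensors such as RIG-I (DDX58), PKR (EIF2AK2) and the OAS enzymes, which switch on interferon-stimulated genes, halt translation or activate RNA decay. Hepatocyte-derived cells carry much of this machinery and also respond to stress through ATF4, metallothionein and lipid-synthesis genes. The study's stated question is how cloaking of an mRNA affects the gene expression of the cell that receives it.

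The libraries were deep. Totals were 78548789, 68297832 and 69796765 counts in the strong-cloaked group and 70683001, 74637354 and 61472811 in the non-cloaked group. After low genes were removed, 18380 genes were tested. The 6 libraries did not sort by group: the median absolute difference over genes was 0.22 to 0.37 on the log2 scale in the 9 pairs that crossed the groups, 0.23 to 0.31 between strong-cloaked replicates and 0.29 to 0.39 between non-cloaked replicates. The first principal component of these libraries (22.2% of the variance) set non-cloaked replicate 3 apart from the other 5, and the second (21.3%) set strong-cloaked replicate 3 apart. Weak-cloaked replicate 1, which had the lowest total of the 15 (57128519), entered through the shared fit, and without it the comparison below still called 0 genes. Liver markers were present in every library, albumin (ALB) at 5131, 5179 and 6526 CPM (a count relative to the library total, scaled by TMM) in strong-cloaked cells and 5826, 4494 and 4586 CPM in non-cloaked cells.

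No gene passed the test between strong-cloaked and non-cloaked cells. By the quasi-likelihood test of edgeR, adjusted after Benjamini and Hochberg, 0 of 18380 genes (0%) had an adjusted p below 0.05, and the smallest adjusted p was 0.51. At an unadjusted p below 0.05 there were 663 genes (3.61%), 301 of them higher (1.64%) and 362 lower (1.97%) in strong-cloaked cells. DESeq2 on the same genes called 15, of which 7 were higher and 8 lower. Its smallest adjusted p was 4.36e-08, for ARL2-SNX15, with an extreme log2 fold change of -25.99. TALAM1 (-22.07), SRGAP2D (-10.11) and SH2D5 (-5.04) were also among its calls, and the counts behind these estimates are not given here. An edgeR fit of the 6 libraries alone called SVIL and MVB12A. The replicates of the groups did not overlap for 1847 genes (10%), with the strong-cloaked libraries all above in 889 (4.84%) and all below in 958 (5.21%).

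The intervals bounded the size of the difference for many genes. How many genes truly differ cannot be read from the 0 called. Over all tested genes the median log2 fold change, strong-cloaked over non-cloaked, was 0.0060, its quartiles were -0.20 and 0.18, and 51.0% of genes were positive. For 10774 genes (58.6%) the whole 95% interval lay within 2-fold of no difference, and for 5551 (30.2%) within 1.5-fold. Among the 12057 genes whose mean log2 CPM was 1 or more, the interval lay within 2-fold for 9803 (81.3%). Fold changes of 2-fold or more were found for 1215 genes (6.61%), 563 higher and 652 lower, but only 162 of these reached a mean log2 CPM of 1. Counts were also simulated with the depths and estimated dispersions of these libraries. Genes were drawn independently, so no simulated library stood apart, and only genes with a mean log2 CPM of 1 or more were changed. Of the genes changed 4-fold, 55 of 66 were called (83.3%), against 24 of 67 changed 2-fold (35.8%) and 2 of 67 changed 1.5-fold (2.99%). Recovery in the real libraries may be lower.

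**Figure D1:**
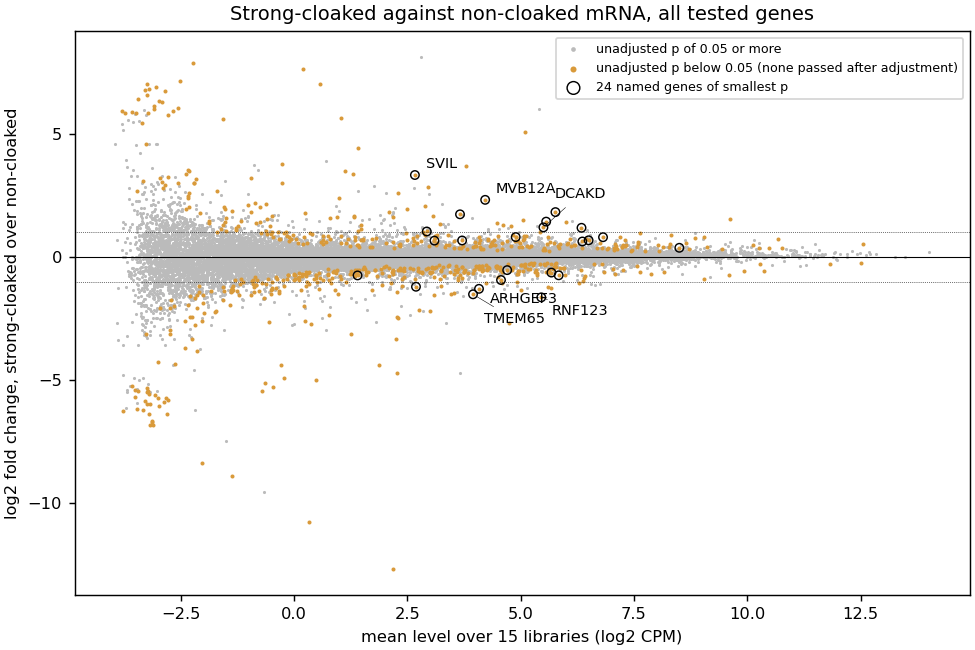
Log2 fold change of strong-cloaked over non-cloaked cells (vertical axis) against mean level over the 15 libraries (horizontal axis, log2 CPM), 1 point per tested gene; orange points had an unadjusted p below 0.05, circles mark the 24 genes of smallest p whose mean log2 CPM was 1 or more, and dotted lines mark 2-fold. The cloud narrows around 0 as the level rises, with 162 genes beyond 2-fold above a mean log2 CPM of 1, and most fold changes beyond 2-fold belong to genes of lower level.

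Against untransfected cells, each group differed more. Strong-cloaked cells had 2776 called genes of 18380 (15.1%), 1469 higher (7.99%) and 1307 lower (7.11%), whereas non-cloaked cells had 1195 (6.5%), 706 higher (3.84%) and 489 lower (2.66%). These comparisons share the untransfected libraries. Their counts do not show a difference between the transfected groups, because the direct test of that difference is the one above that called no gene. The counts also moved with the libraries included. For strong-cloaked cells the count was 728 to 1757 without any 1 of their own or the untransfected libraries. For non-cloaked cells it was 1127 without non-cloaked replicate 1 and 119 to 379 without any other library of the groups compared. Without weak-cloaked replicate 1, which enters through the shared fit alone, the counts were 4191 for strong-cloaked and 3107 for non-cloaked cells.

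The genes of smallest p are described next as values that did not pass the edgeR test. There are 24 whose mean log2 CPM was 1 or more, of which 15 were higher and 9 lower in strong-cloaked cells, and in each the replicates of the groups did not overlap. They were picked for their small p, so that separation is part of how they were chosen. None of them changed sign under the alternatives run. After adjustment (edgeR, Benjamini-Hochberg) RNF123 and MVB12A had an adjusted p of 0.51, SVIL of 0.878 and DCAKD of 0.976, and for the remainder it rounded to 1. DESeq2 called RNF123, MVB12A, SVIL, DCAKD, TMEM65, ARHGEF3 and MRE11, with adjusted p from 8.22e-05 to 0.0386, and none of the other named genes.

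**Figure D2:**
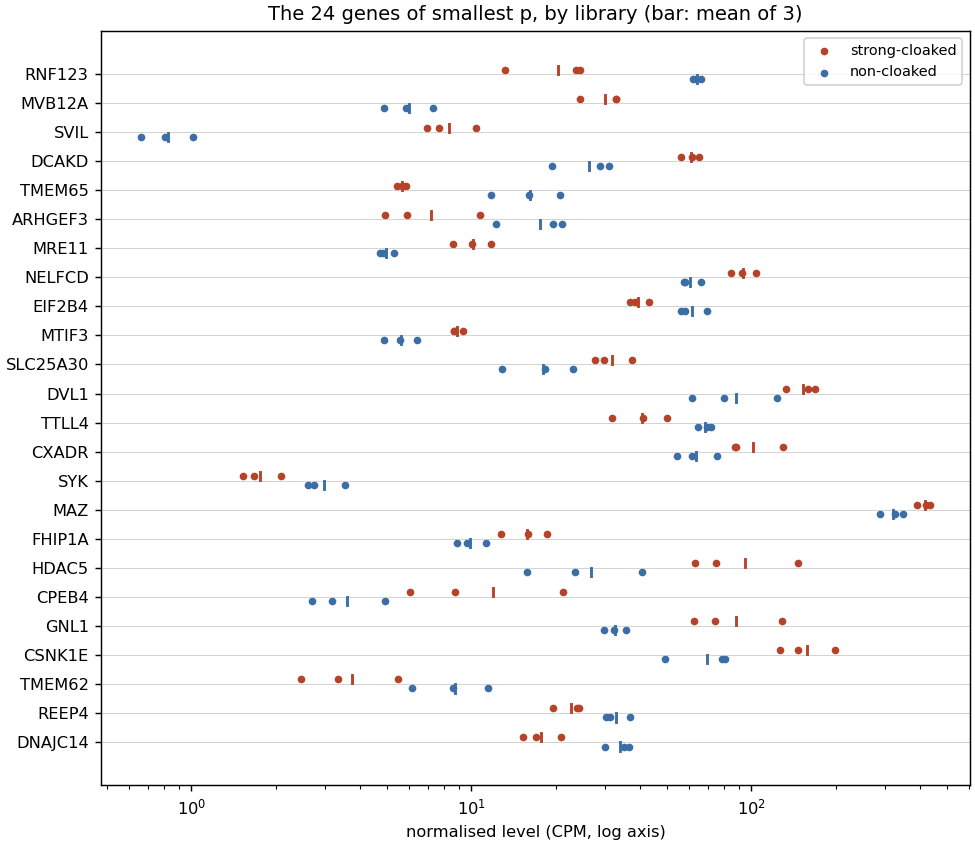
Normalised level (CPM, log axis) of the 24 genes of smallest p in each strong-cloaked library (red) and each non-cloaked library (blue), with a bar at each group mean (n = 3). The groups do not overlap in any row. The largest fold change is that of SVIL (10.1-fold higher in strong-cloaked cells) and the smallest that of MAZ (1.29-fold higher). None passed in the edgeR fit of all 15 libraries, while DESeq2 called 7 of them and edgeR on the 6 libraries alone called SVIL and MVB12A.

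Among genes of protein turnover and membrane traffic, RNF123 and MVB12A stood first. RNF123 (ENSG00000164068, chr3:49689499-49721529 of GRCh38, plus strand) encodes the catalytic subunit of the KPC ubiquitin ligase. It was at 24.5, 23.7 and 13.2 CPM in strong-cloaked cells, against 63.6, 61.7 and 66.2 CPM in non-cloaked cells, 3.12-fold lower (log2 fold change -1.64 ± 0.29 SE). MVB12A (ENSG00000141971, chr19:17405722-17433724, plus strand) encodes a subunit of ESCRT-I, the complex that sorts ubiquitinated membrane proteins into multivesicular endosomes. It stood at 24.5, 32.8 and 32.8 CPM in strong-cloaked cells and at 4.87, 7.28 and 5.85 CPM in non-cloaked cells, 5.00-fold higher (2.32 ± 0.42 SE). All 3 strong-cloaked libraries lay far above the highest non-cloaked library. REEP4, which shapes the endoplasmic reticulum and clears it from chromosomes in mitosis, was at 24.3, 23.9 and 19.6 CPM in strong-cloaked cells and 31.3, 30.2 and 36.8 CPM in non-cloaked cells (-0.53 ± 0.15 SE). FHIP1A, a partner of the dynein adaptor Hook, had 12.8, 16 and 18.7 CPM in strong-cloaked cells and 9.68, 11.2 and 8.86 CPM in non-cloaked cells (0.67 ± 0.18 SE).

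Several were genes of the cytoskeleton and the cell surface. SVIL encodes supervillin, which links actin and myosin to membranes (chr10:29457338-29736781, minus strand). Its level was 10.4, 7.65 and 6.92 CPM in strong-cloaked cells and 0.660, 1.01 and 0.802 CPM in non-cloaked cells, 10.1-fold higher (3.33 ± 0.66 SE). ARHGEF3 encodes an exchange factor that activates RhoA (chr3:56727418-57079329, minus strand). It had 5.88, 10.8 and 4.90 CPM in strong-cloaked cells, against 21.1, 12.3 and 19.5 CPM in non-cloaked cells, 2.46-fold lower (-1.30 ± 0.29 SE). The highest strong-cloaked library and the lowest non-cloaked library were close together. TTLL4, an enzyme that adds glutamate chains to tubulin, was at 49.9, 40.8 and 31.7 CPM in strong-cloaked cells and 69.4, 64.7 and 71.5 CPM in non-cloaked cells (-0.75 ± 0.20 SE). CXADR, the junction protein used by coxsackieviruses and adenoviruses as a receptor, was at 88.4, 87.2 and 129 CPM in strong-cloaked cells and 61.2, 75.2 and 54.1 CPM in non-cloaked cells (0.68 ± 0.18 SE).

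Signalling genes were also among them. DVL1, the Dishevelled protein that relays Wnt signals, was at 133, 159 and 168 CPM in strong-cloaked cells, against 123, 79.6 and 61.3 CPM in non-cloaked cells (0.80 ± 0.21 SE). CSNK1E encodes casein kinase 1 epsilon, which phosphorylates Dishevelled and the PER clock proteins. It had 127, 147 and 199 CPM in strong-cloaked cells and 78.6, 49.0 and 80.3 CPM in non-cloaked cells, 2.28-fold higher (1.19 ± 0.33 SE). A read-through locus that shares exons with it, TPTEP2-CSNK1E, was at 0.0927, 0 and 0.0931 CPM in strong-cloaked cells and 0.633, 5.54 and 0 CPM in non-cloaked cells, and the sum of both loci was 127, 147 and 199 CPM against 79.2, 54.6 and 80.3 CPM. The groups thus stayed apart when both loci were added. SYK, a tyrosine kinase best known from immune receptors, was at 2.09, 1.52 and 1.68 CPM in strong-cloaked cells and 3.55, 2.61 and 2.75 CPM in non-cloaked cells (-0.75 ± 0.20 SE). GNL1, a GTP-binding protein encoded within the major histocompatibility region, was at 74.4, 129 and 62.4 CPM in strong-cloaked cells and 32.3, 29.9 and 35.8 CPM in non-cloaked cells (1.44 ± 0.39 SE).

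A further set encode mitochondrial or metabolic proteins. DCAKD, a protein with a dephospho-CoA kinase domain (chr17:45023340-45061109, minus strand), was at 56.1, 61.2 and 64.8 CPM in strong-cloaked cells and 19.4, 30.9 and 28.8 CPM in non-cloaked cells, 2.30-fold higher (1.20 ± 0.26 SE). TMEM65, an inner mitochondrial membrane protein (chr8:124306189-124372692, minus strand), was at 5.64, 5.83 and 5.43 CPM in strong-cloaked cells and 20.7, 11.7 and 16 CPM in non-cloaked cells, 2.87-fold lower (-1.52 ± 0.34 SE). The strong-cloaked replicates of TMEM65 lay within a narrow band, and the non-cloaked replicates were more scattered. MTIF3, an initiation factor of mitochondrial translation, had 8.66, 9.31 and 8.64 CPM in strong-cloaked cells and 4.87, 6.38 and 5.55 CPM in non-cloaked cells (0.66 ± 0.17 SE). SLC25A30, a mitochondrial carrier, had 29.8, 27.7 and 37.5 CPM in strong-cloaked cells and 12.9, 23.0 and 18.4 CPM in non-cloaked cells (0.81 ± 0.21 SE).

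Nuclear genes made up another set. MRE11 encodes the nuclease of the complex that detects DNA double-strand breaks. Its level was 10.0, 11.8 and 8.59 CPM in strong-cloaked cells and 4.70, 4.83 and 5.29 CPM in non-cloaked cells, 2.05-fold higher (1.04 ± 0.24 SE). NELFCD, a subunit of the factor that pauses RNA polymerase II near promoters, was at 92.5, 104 and 84.6 CPM in strong-cloaked cells and 57.2, 58.1 and 66.2 CPM in non-cloaked cells (0.63 ± 0.15 SE). HDAC5 is a class IIa histone deacetylase. It was at 62.8, 146 and 74.6 CPM in strong-cloaked cells, against 15.8, 23.5 and 40.8 CPM in non-cloaked cells, 3.54-fold higher (1.82 ± 0.49 SE). MAZ, a zinc finger transcription factor, had the smallest fold change of the 24, at 391, 435 and 420 CPM in strong-cloaked cells and 325, 288 and 349 CPM in non-cloaked cells (0.37 ± 0.10 SE).

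Genes that act on mRNA or on new proteins completed the set, apart from TMEM62, a membrane protein (-1.21 ± 0.34 SE). EIF2B4 encodes the delta subunit of eIF2B, the exchange factor that the integrated stress response inhibits. It was at 43.0, 38.3 and 36.9 CPM in strong-cloaked cells and 58.1, 56.2 and 69.1 CPM in non-cloaked cells, 1.55-fold lower (-0.64 ± 0.16 SE). CPEB4, which binds mRNAs and controls the length of their poly(A) tails, was at 8.75, 21.2 and 6.02 CPM in strong-cloaked cells and 2.70, 3.19 and 4.93 CPM in non-cloaked cells (1.73 ± 0.48 SE). DNAJC14, a J-protein of the endoplasmic reticulum, was at 17.0, 20.8 and 15.3 CPM in strong-cloaked cells and 36.7, 30.1 and 35.0 CPM in non-cloaked cells (-0.94 ± 0.27 SE). Of the 24 genes, 18 overlap another annotated gene and 16 overlap one on the opposite strand, and how strand was handled in counting is not stated in the labels. Reads of these pairs may therefore be uncertain. In 16 such pairs the other gene was tested, and in 13 its fold change had the sign of the named gene. Among the 13, the log2 fold change was largest in size for AMIGO3 (-2.19), opposite RNF123, SPATA12 (-1.97), opposite ARHGEF3, and CCNDBP1 (-0.89), on the strand of TMEM62. In the rest of the 13 it was smaller, from -0.20 for ORMDL2, opposite DNAJC14, to 0.44 for BISPR, on the strand of MVB12A.

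The intermediate grades and the untransfected cells show where each gene's difference lay. RNF123 was at 39.0, 56.2 and 38.3 CPM in weak-cloaked, 55.8, 23.1 and 36.2 CPM in medium-cloaked and 57.9, 45.5 and 52.8 CPM in untransfected cells. Its strong-cloaked level was lower than in untransfected cells (-1.35, adjusted p = 0.0132 by edgeR, Benjamini-Hochberg) and its non-cloaked level was not called against them (0.30, adjusted p = 0.547). MVB12A was at 13.3, 12.5 and 19.8 CPM in weak-cloaked, 10.3, 33.8 and 29.5 CPM in medium-cloaked and 19.4, 9.20 and 22.7 CPM in untransfected cells. For MVB12A the non-cloaked cells were the ones called against untransfected cells (-1.51, adjusted p = 0.0448), and the strong-cloaked cells were not (0.81, adjusted p = 0.179). SVIL likewise was lower in non-cloaked than in untransfected cells (-2.38, adjusted p = 0.0458), where its level ran from 0.592 to 7.55 CPM. It was at 6.27, 9.90 and 7.61 CPM in weak-cloaked and 15.4, 8.39 and 6.91 CPM in medium-cloaked cells, all above the non-cloaked libraries.

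In ARHGEF3 and TMEM65 the 3 strong-cloaked libraries were the lowest of all 15. Medium-cloaked cells had 22, 18.5 and 19.5 CPM of ARHGEF3 and 16.7, 22.9 and 19.2 CPM of TMEM65, near or above the non-cloaked levels. Both genes were lower in strong-cloaked than in untransfected cells (ARHGEF3 -1.73, adjusted p = 0.00524; TMEM65 -2.05, adjusted p = 0.00462; edgeR, Benjamini-Hochberg). DCAKD in contrast was already at 56.8, 58.6 and 58.4 CPM in medium-cloaked cells, and at 37.0, 59.9 and 54.7 CPM in weak-cloaked cells. Over the 24 genes, the weak-cloaked mean lay between the non-cloaked and the strong-cloaked mean in 22, the medium-cloaked mean in 15, and the 4 group means ran one way from non-cloaked through weak and medium to strong in 12. Over all 12057 genes of that mean level or above, the means ran one way in 6.72%. The shares are not matched, because the 24 were chosen for the distance between the end groups. Against untransfected cells, 10 of the 24 were called in strong-cloaked cells (4 higher and 6 lower), beside 15.1% of all genes. In non-cloaked cells 2 were called, both lower, beside 6.5% of all genes, and none was called in both groups. The choice of the 24 used the libraries of both groups, so nothing is read from these counts.

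**Figure D3:**
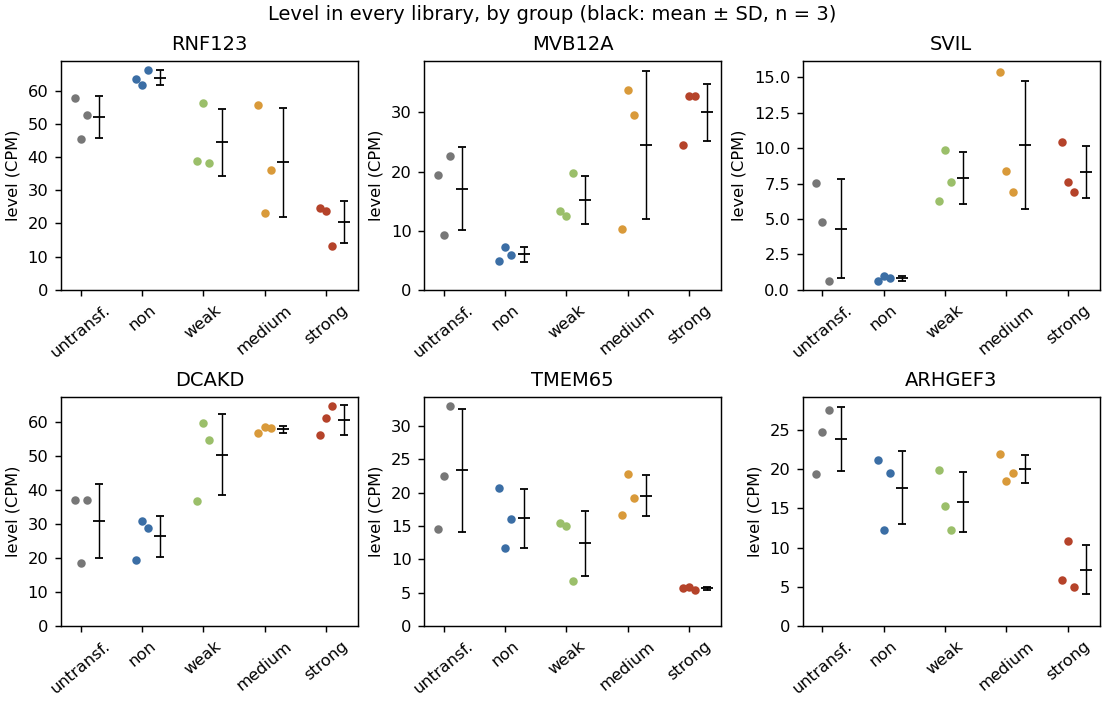
Level (CPM) of the 6 genes of smallest p in every library, in untransfected cells and in cells given non-, weak-, medium- and strong-cloaked mRNA; points are libraries and black bars mean ± SD (n = 3). RNF123 and MVB12A have intermediate weak and medium means with wide scatter, DCAKD is at its strong-cloaked level already in medium-cloaked cells (56.8 to 58.6 CPM), and TMEM65 and ARHGEF3 are low in the strong-cloaked group alone among the 5 groups plotted.

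The rest of the transcriptome was read through 41 lists covering 1057 genes, of which 1010 rows were tested. No list held a gene called between strong-cloaked and non-cloaked cells by edgeR, against 0% over all genes, and the median log2 fold changes of the lists ran from -0.15 to 0.27. To see whether a list shifted in all replicates, the median of its members was taken in each library. Strong-cloaked libraries all lay above the non-cloaked ones in 6 lists, all below in 1, and overlapped them in 34. The 6 were the ATF4 targets, fatty acid and triglyceride synthesis, hepatocyte products, endocytosis and endosomal sorting, membrane repair and phospholipid handling, and YAP, SRF and matrix genes, and the 1 was DNA replication. The medians depended on single libraries: without 1 of the 6, the median turned sign in 16 of the 41 lists and moved by over 1.5 times or turned in 35. They describe these libraries and are not evidence of a direction.

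Interferon-stimulated genes had overlapping list medians in the libraries of both groups, and none passed. Of 41 tested, 17 were higher and 24 lower in strong-cloaked cells, their median log2 fold change was -0.062 (0.0060 over all genes), and for 24 the whole interval lay within 2-fold. Against untransfected cells, 17 members were called in strong-cloaked cells, 9 higher and 8 lower, beside 15.1% of all genes. In non-cloaked cells 6 were called, 5 higher and 1 lower, beside 6.5%. ISG15, a ubiquitin-like protein that is among the strongest interferon targets, was at 63.0, 62.2 and 62.4 CPM in strong-cloaked cells and 48.2, 56.2 and 67.1 CPM in non-cloaked cells (0.13, 95% interval -0.20 to 0.46). Both groups were above untransfected cells in ISG15 (strong-cloaked 1.21, adjusted p = 0.0014; non-cloaked 1.08, adjusted p = 0.00414; edgeR, Benjamini-Hochberg). OAS1, which makes the messenger that activates RNase L, was at 39.6, 40.2 and 42.5 CPM in strong-cloaked cells and 41.4, 44.2 and 44.3 CPM in non-cloaked cells (-0.09 ± 0.13 SE). IFIT1, which binds mRNA whose cap lacks ribose methylation, was low in both groups, at 1.44, 0.989 and 0.667 CPM in strong-cloaked and 2.06, 1.56 and 1.14 CPM in non-cloaked cells (-0.62 ± 0.32 SE). It was lower in strong-cloaked than in untransfected cells (-1.27, adjusted p = 0.0233) and not called in non-cloaked cells (-0.65, adjusted p = 0.205; edgeR, Benjamini-Hochberg). PARP9, an ADP-ribosyltransferase family member of interferon signalling, was one of the members with an unadjusted p below 0.05, at 3.24, 2.43 and 1.54 CPM in strong-cloaked cells and 4.47, 3.80 and 3.91 CPM in non-cloaked cells (-0.75 ± 0.33 SE). Against untransfected cells PARP9 too was lower in the strong-cloaked group (-1.06, adjusted p = 0.0477) and not called in the non-cloaked group (-0.31, adjusted p = 0.591; edgeR, Benjamini-Hochberg). The other member with such a p was SAMD9, at or near 0 in all 6 libraries (at most 0.495 CPM).

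Genes that sense foreign RNA had a small median fold change as well, with members from -1.63 to 0.69 (log2). Of 28 tested genes of RNA sensing and its signalling, 13 were higher and 15 lower in strong-cloaked cells, with 20 intervals within 2-fold. The median of -0.025 turned to 0.037 without non-cloaked replicate 1. RIG-I (DDX58) was at 0.953, 0.707 and 0.558 CPM in strong-cloaked cells and 0.976, 0.766 and 0.871 CPM in non-cloaked cells (-0.23 ± 0.44 SE), and its 95% interval reached past 2-fold lower (-1.18 to 0.72). PKR (EIF2AK2) was at 23.1, 24.5 and 26.9 CPM in strong-cloaked cells and 27.7, 23.5 and 20.9 CPM in non-cloaked cells (0.05, 95% interval -0.32 to 0.41), and the sign of that small difference turned with total-count scaling (-0.032). It was lower than in untransfected cells in both groups (strong-cloaked -0.60, adjusted p = 0.0338; non-cloaked -0.65, adjusted p = 0.0416; edgeR, Benjamini-Hochberg). DHX58 (LGP2), a RIG-I-like helicase without a signalling domain, was at 4.03, 4.07 and 2.51 CPM in strong-cloaked cells and 2.05, 2.86 and 1.66 CPM in non-cloaked cells (0.69 ± 0.29 SE), with overlapping replicates. MAVS, the adaptor below RIG-I and MDA5, was at 128, 138 and 134 CPM in strong-cloaked cells and 147, 138 and 118 CPM in non-cloaked cells, with a 95% interval of -0.23 to 0.20.

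**Figure D4:**
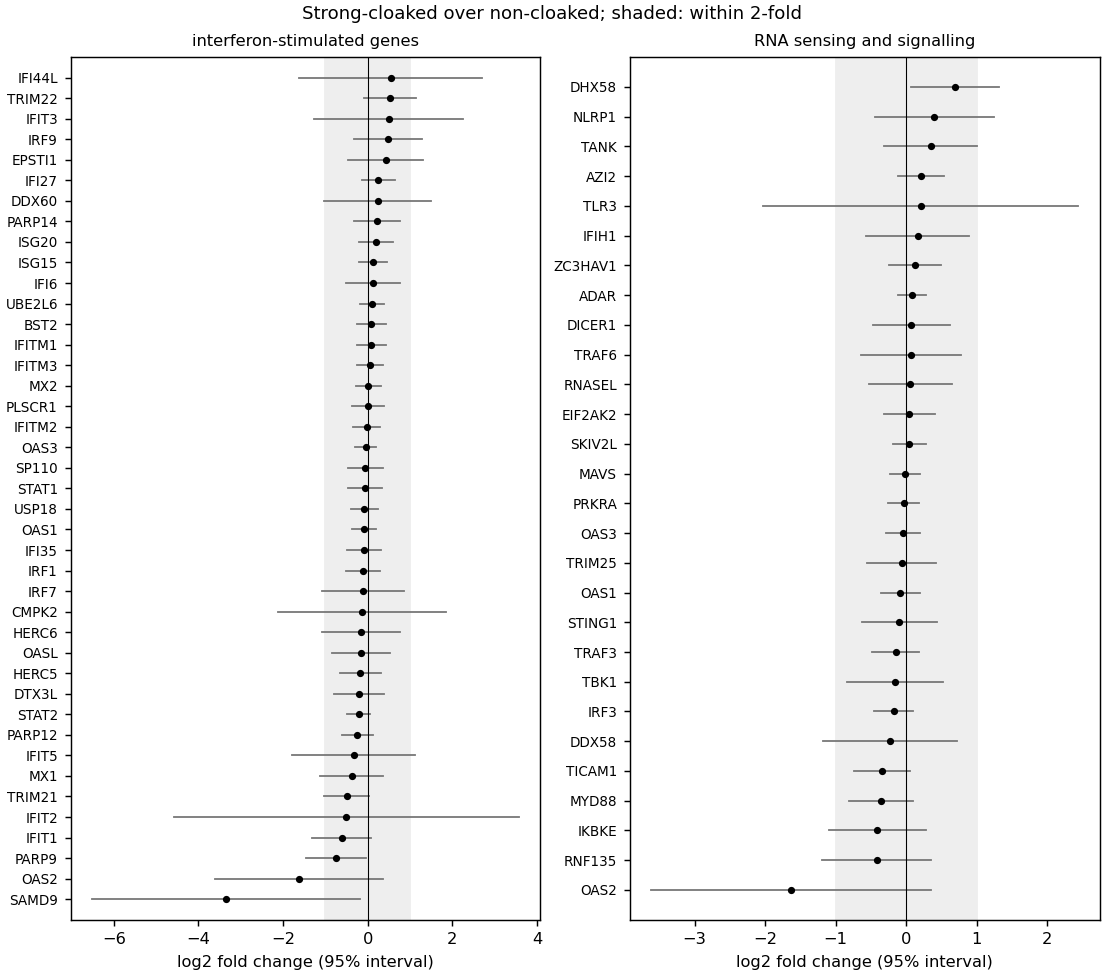
Log2 fold change of strong-cloaked over non-cloaked cells with its 95% interval for each tested interferon-stimulated gene (left, 41 genes) and each gene of RNA sensing and signalling (right, 28 genes), sorted by fold change; shading marks the range within 2-fold. Most points lie near 0, with 24 and 20 intervals inside the shaded range, and the wide intervals belong to genes of low level such as SAMD9, IFIT2 and TLR3.

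Inflammatory and antigen-presentation genes gave few differences. Of 23 tested NF-kappaB targets and cytokines, 10 were higher and 13 lower in strong-cloaked cells (median -0.090), and this median ranged from -0.21 to 0.14 as single libraries were left out, the highest without non-cloaked replicate 3. NFKB2, an NF-kappaB subunit, was at 85.1, 85.2 and 85.5 CPM in strong-cloaked cells and 47.5, 85.6 and 49.5 CPM in non-cloaked cells (0.49 ± 0.21 SE). Non-cloaked replicate 2 was at the strong-cloaked level in this gene. CXCL2, a chemokine, rested on non-cloaked replicate 3, with 0.622, 0.110 and 0.838 CPM in strong-cloaked cells and 0.495, 0.424 and 7.03 CPM in non-cloaked cells; without that library the difference turned to 0.19. Of 23 antigen-presentation genes 15 were higher and 8 lower (median 0.056, -0.012 with total-count scaling), and CD74, the chaperone of class II molecules, was at 139, 154 and 157 CPM in strong-cloaked cells and 126, 129 and 112 CPM in non-cloaked cells (0.29 ± 0.15 SE).

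Stress genes gave a mixed picture. ATF4, which carries the integrated stress response into the nucleus, was at 381, 390 and 423 CPM in strong-cloaked cells and 330, 364 and 382 CPM in non-cloaked cells (0.15 ± 0.13 SE). Of 27 tested ATF4 targets, 19 were higher and 8 lower in strong-cloaked cells, and the median of 0.044 turned to -0.031 with total-count scaling. DDIT3 (CHOP), which promotes cell death under lasting stress, was at 27.3, 34.9 and 52.3 CPM in strong-cloaked cells and 20.4, 24 and 20.6 CPM in non-cloaked cells, 1.76-fold higher (0.82 ± 0.29 SE). Its level exceeded that of untransfected cells in the strong-cloaked group (1.35, adjusted p = 0.0129) and was not called in the non-cloaked group (0.53, adjusted p = 0.247; edgeR, Benjamini-Hochberg), but the direct difference did not pass. NUPR1, a stress-induced chromatin protein, was at 67.8, 75.7 and 70.2 CPM in strong-cloaked cells and 49.5, 37.5 and 63.3 CPM in non-cloaked cells (0.51 ± 0.21 SE). ATF3, another stress-induced factor, was at 76.9, 85.4 and 98.5 CPM in strong-cloaked cells and 68.8, 92.9 and 87.7 CPM in non-cloaked cells (0.06 ± 0.33 SE), a difference whose sign turned with total-count scaling. ATF3 was above untransfected cells in both groups (strong-cloaked 1.67, adjusted p = 0.0117; non-cloaked 1.61, adjusted p = 0.0238; edgeR, Benjamini-Hochberg).

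Protein-folding and oxidant-defence lists held no gene that passed. Of 26 tested genes of the unfolded protein response, 19 were higher and 7 lower in strong-cloaked cells (median 0.095). HSP90B1, a chaperone of the endoplasmic reticulum, was at 1184, 1267 and 1538 CPM in strong-cloaked cells and 1211, 1070 and 844 CPM in non-cloaked cells (0.35 ± 0.15 SE). Among cytosolic and mitochondrial chaperones 16 were higher and 10 lower, and HSPD1, the mitochondrial chaperonin, was at 1392, 644 and 760 CPM in strong-cloaked cells and 1567, 1421 and 1172 CPM in non-cloaked cells (-0.57 ± 0.26 SE). Of 32 NRF2 targets, 13 were higher and 19 lower (median -0.049). SQSTM1 (p62), a cargo receptor of autophagy and an NRF2 target, was at 314, 280 and 175 CPM in strong-cloaked cells and 350, 349 and 468 CPM in non-cloaked cells, 1.52-fold lower (-0.60 ± 0.25 SE). Of 17 metallothionein and metal-handling genes, 14 were higher and 3 lower (median 0.20). MT1X, a metallothionein, was at 85.3, 87.4 and 57.4 CPM in strong-cloaked cells and 49.6, 71.2 and 54.8 CPM in non-cloaked cells (0.39 ± 0.19 SE), and was above untransfected cells in both groups (strong-cloaked 1.68, adjusted p = 0.000788; non-cloaked 1.29, adjusted p = 0.00454; edgeR, Benjamini-Hochberg).

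Genes of energy and lipid metabolism held the highest list median. Of 32 tested glycolysis and hypoxia-response genes, 30 were higher and 2 lower in strong-cloaked cells, with a median of 0.27 and a range of 0.13 to 0.41 as single libraries were left out. Per library the list median was 0.22, 0.38 and -0.14 in strong-cloaked cells and -0.17, -0.032 and -0.15 in non-cloaked cells, on the log2 scale relative to the mean of the 6 libraries. Strong-cloaked replicates 1 and 2 thus stood above the non-cloaked libraries, and replicate 3 lay among them. PKM, the pyruvate kinase of glycolysis, was at 2175, 2672 and 2285 CPM in strong-cloaked cells and 1622, 1377 and 1357 CPM in non-cloaked cells, 1.64-fold higher (0.71 ± 0.25 SE). ERO1A, a hypoxia-induced oxidase that forms disulfides in the endoplasmic reticulum, was at 335, 393 and 299 CPM in strong-cloaked cells and 286, 224 and 202 CPM in non-cloaked cells (0.53 ± 0.17 SE). Both genes had non-overlapping groups, which is part of how they were chosen (smallest p in the list), and neither passed after adjustment. In 4 of the 32 genes the strong-cloaked replicates all lay above the non-cloaked ones, beside 4.84% of all genes. In 1 they all lay below, beside 5.21%.

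In lipid metabolism, 16 of 23 tested genes of fatty acid and triglyceride synthesis were higher (median 0.11), and the strong-cloaked libraries all lay above the non-cloaked ones in the list median. SCD, which makes monounsaturated fatty acids, was at 2582, 2702 and 2922 CPM in strong-cloaked cells and 2456, 2572 and 2178 CPM in non-cloaked cells (0.19 ± 0.10 SE). GPAM, the first enzyme of triglyceride synthesis, was more variable, at 2.54, 11.7 and 11.1 CPM in strong-cloaked cells and 2.12, 1.19 and 4.71 CPM in non-cloaked cells (1.66 ± 0.71 SE). Of 26 genes of cholesterol synthesis 20 were higher and 6 lower (median 0.12), but the list stood out in strong-cloaked replicate 3 alone, at 0.31 against -0.063 to 0.0024 in the other 5 libraries, and the median turned to -0.027 without it. Of 25 PPAR targets and genes of fat burning and lipid droplets, 17 were higher and 8 lower (median 0.12). FABP1, the fatty acid binding protein of liver, was at 28.7, 25.8 and 24.1 CPM in strong-cloaked cells and 20.5, 21.3 and 21.4 CPM in non-cloaked cells (0.31 ± 0.12 SE). ANGPTL4, a PPAR target that inhibits lipoprotein lipase, was at 54.6, 66.2 and 49.7 CPM in strong-cloaked cells and 36.7, 47.6 and 46.7 CPM in non-cloaked cells (0.38 ± 0.17 SE).

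Secreted liver products were slightly higher in most cases. Of 27 tested, 23 were higher and 4 lower in strong-cloaked cells (median 0.13, 0.057 with total-count scaling), and the list median of each strong-cloaked library exceeded that of each non-cloaked library. APOC3, an apolipoprotein that slows triglyceride clearance, was at 36.0, 43.4 and 37.0 CPM in strong-cloaked cells and 24.3, 34.7 and 28.4 CPM in non-cloaked cells (0.41 ± 0.18 SE). Transferrin (TF) was at 3640, 4001 and 3387 CPM in strong-cloaked cells and 2918, 2952 and 1787 CPM in non-cloaked cells (0.53 ± 0.32 SE). The markers of liver identity AFP, APOA1, SERPINA1, FGB, TTR, HNF4A and ASGR1 had log2 fold changes of -0.13 to 0.24. The sign turned in FGB with total-count scaling or without strong-cloaked replicate 3, in HNF4A without that library, and in TTR without non-cloaked replicate 1. Of 22 liver transcription factors and nuclear receptors, 8 were higher and 14 lower (median -0.055), and this median turned to 0.016 without strong-cloaked replicate 3.

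Drug-metabolism genes went both ways. Of 22 tested, 10 were higher and 12 lower in strong-cloaked cells. UGT1A1, which conjugates bilirubin, was at 636, 754 and 923 CPM in strong-cloaked cells and 397, 433 and 495 CPM in non-cloaked cells, 1.75-fold higher (0.80 ± 0.31 SE). Its level exceeded that of untransfected cells in both groups (strong-cloaked 2.32, adjusted p = 0.00228; non-cloaked 1.52, adjusted p = 0.0218; edgeR, Benjamini-Hochberg). UGT1A genes share their 3′ exons, so reads among them may be uncertain. GSTA1, a glutathione transferase, was at 13.9, 13.0 and 17.1 CPM in strong-cloaked cells and 21.3, 17.3 and 19.6 CPM in non-cloaked cells (-0.40 ± 0.18 SE). Of 18 genes of gluconeogenesis and insulin response 10 were higher and 8 lower (median 0.059, -0.014 with total-count scaling). PCK1, the rate-limiting enzyme of gluconeogenesis, was at 34.4, 38.2 and 36.5 CPM in strong-cloaked cells and 30.0, 13.2 and 27.8 CPM in non-cloaked cells (0.62 ± 0.33 SE). Of 26 acute-phase and complement genes 17 were higher and 9 lower (median 0.060, -0.015 with total-count scaling), and ORM2, an acute-phase plasma protein, swung within a group, at 126, 143 and 1.30 CPM in strong-cloaked cells and 3.19, 2.23 and 2.54 CPM in non-cloaked cells. Such swings mark its log2 fold change of 5.08 ± 1.98 SE (33.9-fold higher) as one set by 2 libraries.

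Endosomal and lysosomal genes, which handle incoming particles, had list medians near 0. Of 33 tested genes of endocytosis and endosomal sorting, 22 were higher and 11 lower in strong-cloaked cells, 29 had intervals within 2-fold, and the median of 0.069 turned to -0.0055 with total-count scaling. VPS28, which like MVB12A is an ESCRT-I subunit, was at 24.7, 27.1 and 32.4 CPM in strong-cloaked cells and 31.7, 36.4 and 37.8 CPM in non-cloaked cells (-0.33 ± 0.17 SE), and TSG101, the core ESCRT-I subunit, was at 69.2, 52.5 and 47.2 CPM in strong-cloaked cells and 82.6, 54.8 and 64.7 CPM in non-cloaked cells (-0.26 ± 0.18 SE). Neither had the sign of MVB12A, but TSG101 was added after its value was seen and further ESCRT-I subunits are not given here. TFE3, a transcription factor of lysosomal genes, was at 81.0, 92.8 and 112 CPM in strong-cloaked cells and 48.9, 69.0 and 54.7 CPM in non-cloaked cells, 1.66-fold higher (0.73 ± 0.24 SE), while of 35 lysosome and autophagy genes 22 were higher and 13 lower (median 0.059, -0.012 with total-count scaling). Of 23 genes of membrane repair and phospholipid handling 13 were higher and 10 lower (median 0.015, -0.052 with total-count scaling). ANXA2, an annexin of membrane repair, was at 147, 267 and 138 CPM in strong-cloaked cells and 136, 104 and 71.3 CPM in non-cloaked cells (0.83 ± 0.37 SE).

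Genes that act on mRNA in the cytosol gave the same kind of result. Of 37 tested mRNA-decay genes 20 were higher and 17 lower in strong-cloaked cells (median 0.013, -0.062 with total-count scaling), and 33 intervals lay within 2-fold. CNOT8, a deadenylase of the CCR4-NOT complex, was at 108, 134 and 107 CPM in strong-cloaked cells and 97.2, 99.9 and 74.2 CPM in non-cloaked cells (0.36 ± 0.14 SE). PATL1, which bridges deadenylation and decapping, was at 52.5, 61.5 and 50.8 CPM in strong-cloaked cells and 46.1, 50.5 and 42.1 CPM in non-cloaked cells (0.25 ± 0.11 SE). Among 31 genes of translation initiation 19 were higher and 12 lower (median 0.041, -0.032 with total-count scaling), 29 with intervals within 2-fold. PABPC4, a cytoplasmic poly(A)-binding protein, was at 227, 231 and 236 CPM in strong-cloaked cells and 193, 200 and 196 CPM in non-cloaked cells, a small difference with tight replicates (0.24 ± 0.09 SE). Of 30 genes of RNA modification and repair, 18 were higher and 12 lower (median 0.0088, -0.064 with total-count scaling). PUS1, a pseudouridine synthase, was at 13.7, 11.4 and 12.5 CPM in strong-cloaked cells and 6.92, 11.8 and 8.62 CPM in non-cloaked cells (0.46 ± 0.21 SE).

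Among 40 cytosolic ribosomal protein genes, 34 were higher and 6 lower in strong-cloaked cells with a median of 0.070, which came to 0.00076 with total-count scaling and 5.66e-05 without non-cloaked replicate 1. Against untransfected cells 31 were called in strong-cloaked and 10 in non-cloaked cells, all of them higher, beside 7.99% and 3.84% of all genes called higher. RPS16, of the small subunit, was at 705, 1254 and 1276 CPM in strong-cloaked cells and 169, 523 and 428 CPM in non-cloaked cells, 2.89-fold higher (1.53 ± 0.50 SE). RPL6, of the large subunit, was at 646, 344 and 608 CPM in strong-cloaked cells and 824, 805 and 1039 CPM in non-cloaked cells, 1.67-fold lower (-0.74 ± 0.27 SE). Ribosomal protein genes have many processed pseudogenes, so reads of both may be uncertain. The ribosome-biogenesis list pointed the other way, with 9 of 32 higher and 23 lower (median -0.14), but its libraries overlapped and the median came to -0.033 without non-cloaked replicate 1. NOP2, a nucleolar RNA methyltransferase, was at 34.0, 25.1 and 26.1 CPM in strong-cloaked cells and 31.3, 41.1 and 46.9 CPM in non-cloaked cells (-0.49 ± 0.17 SE). RRP9, a protein of the U3 processing complex, was at 26.6, 25.6 and 27.5 CPM in strong-cloaked cells and 29.8, 34.2 and 40.4 CPM in non-cloaked cells (-0.39 ± 0.14 SE).

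DNA replication was the 1 list whose median lay lower in every strong-cloaked library (-0.011, -0.0040 and -0.12) than in every non-cloaked library (0.029, 0.035 and 0.10). Of 36 tested genes 9 were higher and 27 lower in strong-cloaked cells (median -0.075), and in 8 the strong-cloaked replicates all lay below, beside 5.21% of all genes. Against untransfected cells 15 members were called in strong-cloaked and 8 in non-cloaked cells, all of them lower, beside 7.11% and 2.66% of all genes called lower. CHAF1A, the large subunit of the chromatin assembly factor, was at 23.8, 22 and 16.9 CPM in strong-cloaked cells and 23.9, 39.7 and 30.3 CPM in non-cloaked cells (-0.58 ± 0.24 SE). CDC45, part of the replicative helicase, was at 19.2, 21 and 16.2 CPM in strong-cloaked cells and 22.3, 23.8 and 30.3 CPM in non-cloaked cells (-0.44 ± 0.18 SE). Mitosis genes did not share that sign, with 23 of 31 higher and 8 lower (median 0.12). PRC1, which bundles microtubules of the spindle midzone, was among those lower, at 49.3, 37.2 and 50.2 CPM in strong-cloaked cells and 64.6, 67.9 and 56.8 CPM in non-cloaked cells (-0.47 ± 0.16 SE). Of 27 p53 targets 18 were higher and 9 lower (median 0.079).

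Growth-signalling lists differed in sign. Of 32 YAP, SRF and matrix genes 28 were higher and 4 lower in strong-cloaked cells (median 0.11, 0.035 with total-count scaling). ANKRD1, a YAP target, was at 90.2, 63.8 and 52.3 CPM in strong-cloaked cells and 30.4, 19.7 and 26.5 CPM in non-cloaked cells, 2.69-fold higher (1.43 ± 0.49 SE). It was lower in non-cloaked than in untransfected cells (-1.98, adjusted p = 0.038) and not called in strong-cloaked cells (-0.55, adjusted p = 0.465; edgeR, Benjamini-Hochberg). FLNA, an actin cross-linker, was at 1359, 1442 and 1375 CPM in strong-cloaked cells and 1121, 809 and 1046 CPM in non-cloaked cells (0.49 ± 0.18 SE). Of 21 beta-catenin targets 5 were higher and 16 lower (median -0.12), 4 of the lower ones at an unadjusted p below 0.05, against 1.97% of all genes. MYC, which drives growth genes, was at 110, 105 and 72.3 CPM in strong-cloaked cells and 136, 133 and 172 CPM in non-cloaked cells, 1.53-fold lower (-0.62 ± 0.25 SE). FOSB, an immediate early gene, was at 2.26, 2.48 and 7.29 CPM in strong-cloaked cells and 1.33, 2.02 and 1.54 CPM in non-cloaked cells (1.30 ± 0.55 SE), while of 32 immediate early genes 18 were higher and 14 lower (median 0.061, -0.0088 with total-count scaling).

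Clock genes included 1 wide difference, which did not pass after adjustment. PER2, a repressor of the circadian clock, was at 1.22, 2.83 and 1.02 CPM in strong-cloaked cells and 8.98, 10.6 and 8.77 CPM in non-cloaked cells, 5.60-fold lower (-2.48 ± 0.72 SE). Against untransfected cells it was not called in either group (strong-cloaked -0.44, adjusted p = 0.704; non-cloaked 2.04, adjusted p = 0.0881; edgeR, Benjamini-Hochberg). In weak-cloaked cells PER2 was at 11.4, 0.870 and 4.29 CPM, so the replicates of that group alone spanned the strong-cloaked and non-cloaked levels. RORA, a nuclear receptor that activates clock genes, was at 6.81, 7.46 and 8.34 CPM in strong-cloaked cells and 6.20, 4.90 and 3.50 CPM in non-cloaked cells (0.63 ± 0.26 SE). Of 19 clock genes 13 were higher and 6 lower (median 0.074). All libraries were labelled with the same 48 h harvest, and the hour of day is not given.

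Mitochondrially encoded mRNAs were the list with the lowest median, -0.15, and all 13 were lower in strong-cloaked cells. MT-CO2, a core subunit of cytochrome c oxidase, was at 3435, 3413 and 3597 CPM in strong-cloaked cells and 4390, 4114 and 4241 CPM in non-cloaked cells, 1.22-fold lower (-0.29 ± 0.09 SE). MT-CO3, of the same enzyme, was at 1038, 1088 and 1172 CPM in strong-cloaked cells and 1358, 1399 and 1225 CPM in non-cloaked cells (-0.27 ± 0.10 SE). These mRNAs are cut from shared transcripts, so the 13 are not independent. Per library the list median was -0.062, -0.073 and -0.053 in strong-cloaked cells and 0.16, 0.19 and -0.13 in non-cloaked cells, so non-cloaked replicate 3 lay below the strong-cloaked libraries. In the nuclear-encoded respiratory chain 18 of 31 genes were higher and 13 lower (median 0.0088, -0.060 with total-count scaling), with 30 intervals within 2-fold.

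Long noncoding RNAs and histone mRNAs were examined as a check on the libraries. Of 15 abundant long noncoding RNAs 13 were higher and 2 lower in strong-cloaked cells (median 0.14), with overlapping library medians. KCNQ1OT1, an imprinted antisense transcript, was at 5.28, 6.13 and 7.97 CPM in strong-cloaked cells and 4.30, 3.89 and 3.72 CPM in non-cloaked cells (0.70 ± 0.25 SE). H19, an imprinted noncoding RNA of fetal liver, was at 107, 123 and 88.1 CPM in strong-cloaked cells and 72.9, 90.5 and 80.6 CPM in non-cloaked cells (0.38 ± 0.16 SE). Of 16 replication-dependent histone genes, whose mRNAs lack a poly(A) tail, 12 were higher and 4 lower, and the list medians were highest in replicate 3 of each group, at 0.43 in the strong-cloaked and 0.34 in the non-cloaked library. Their part in the results above was not tested.

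**Figure D5:**
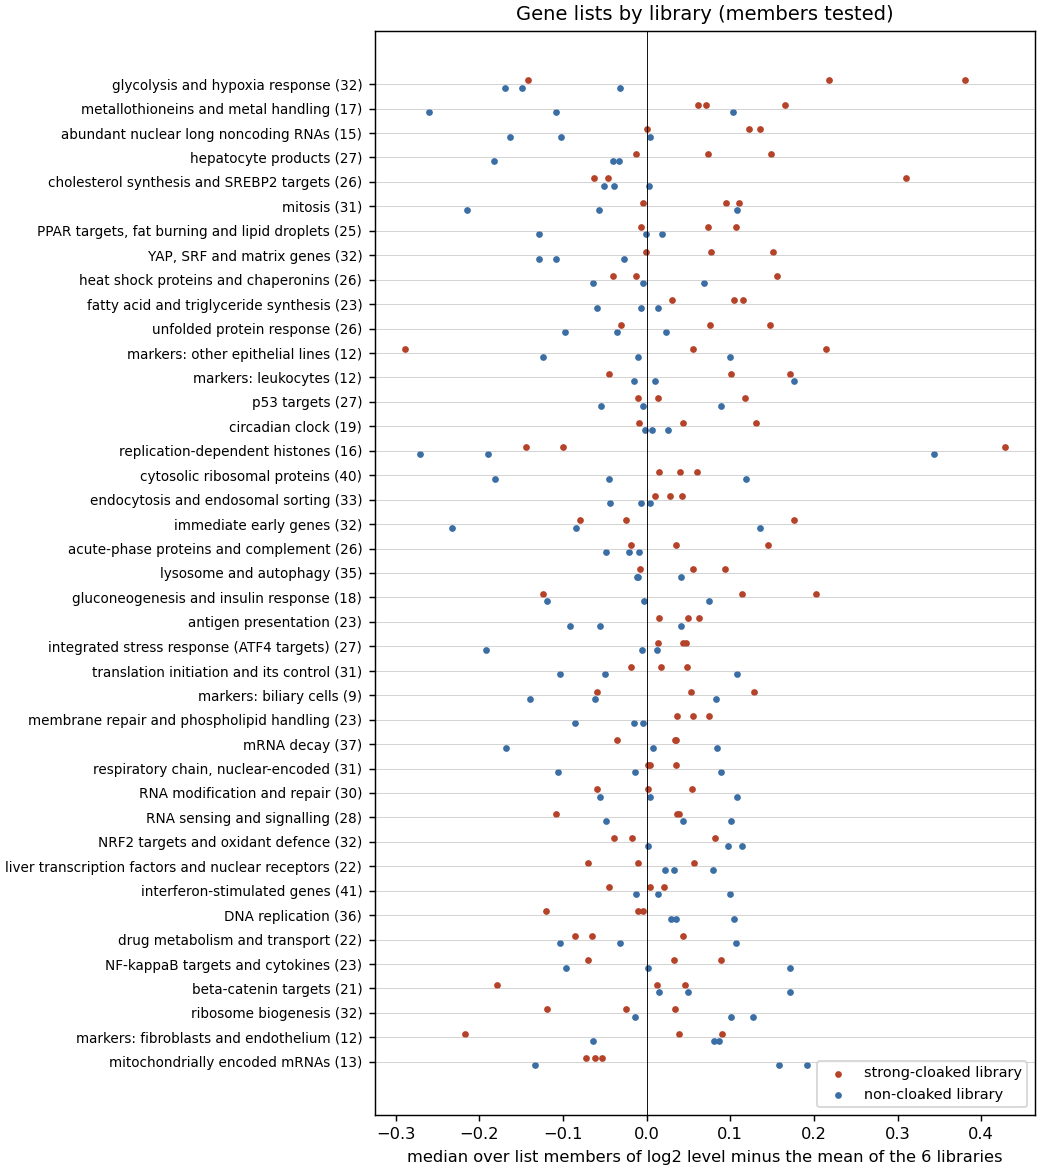
Median over the tested members of each gene list (member number in brackets) of the log2 level minus the mean of the 6 libraries, for each strong-cloaked (red) and non-cloaked (blue) library; lists are sorted by median fold change. The groups overlap in 34 of 41 lists, and most medians lie within 0.2 of 0; glycolysis and hypoxia genes reach 0.38 in strong-cloaked replicate 2, and mitochondrially encoded mRNAs separate but for non-cloaked replicate 3.

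Summed markers of other cell types had overlapping ranges in both groups. Leukocyte markers summed to 1092 to 1214 CPM in strong-cloaked cells and 1135 to 1183 CPM in non-cloaked cells, nearly all of it LYZ and CD68, while 9 of the 15 markers averaged under 1 CPM and FCGR3A and MS4A1 were at 0 in all 6 libraries. Fibroblast and endothelial markers summed to 31.9 to 35.1 CPM in strong-cloaked and 29.9 to 33.0 CPM in non-cloaked cells, with 11 of 15 under 1 CPM and THY1 at 0. Markers of other epithelial lines summed to 585 to 732 CPM in strong-cloaked and 576 to 768 CPM in non-cloaked cells, mostly VIL1 and EPCAM, with KLK3 at 0. Biliary markers, several of which HepG2 cells express, summed to 1065 to 1101 CPM in strong-cloaked and 1028 to 1092 CPM in non-cloaked cells, with CFTR at 0.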

How the data were processed

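Poly(A)-selected, strand-specific libraries of HepG2 RNA (RIN of at least 7) were sequenced as 150 bp read pairs on a NovaSeq, per the labels' protocols. The authors deposited 1 matrix of raw counts per gene for 15 libraries. The submitters' processing notes name HISAT2, HTSeq, DESeq2 1.46.0, R 4.4.2 and GRCh38. Not given in the sources used here are the annotation release, the strand setting and the filter behind the matrix. Of 41412 rows, 14176 were 0 in every library, and 1330 that share a symbol were kept apart.

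Columns were matched to samples through the labels, which call the replicates biological. Each counts as 1 sample on that ground, and no pair among the 6 libraries compared agreed within sampling noise, as repeat deposits of 1 library would. The gene lists, the naming rule and the comparison itself were chosen with earlier results of these data known. The deposited counts were tested with edgeR 4.0.16 (limma 3.58.1, R 4.3.3): filterByExpr at its defaults left 18380 genes, TMM factors scaled the libraries, and all 15 libraries entered a robust quasi-likelihood fit of 5 group means. A gene was called at a Benjamini-Hochberg adjusted p below 0.05. Each SE is the log2 fold change divided by the root of its F statistic. CPM values use TMM-scaled totals. Library totals ran from 57128519 to 78548789 counts. With a biological coefficient of variation of 0.344, the 95% interval of a fold change had a median half-width of 0.62 (log2). How much of that width comes from replicate spread and how much from depth was not tested.

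The genes named were the 24 of smallest p whose mean log2 CPM was 1 or more (no gene was called, which the rule would have put first), the 2 members of smallest p in each list, and ISG15, IFIT1, DDX58, EIF2AK2, ATF4, DDIT3, ATF3 and ALB. OAS1, MAVS and TSG101 were added after their values were seen, and some genes that the rule gives are left out. No set test was run on the lists. Gene positions came from GENCODE release 29 on GRCh38, which annotated 99.4% of tested genes. Alternatives were DESeq2 1.42.0, other scalings and filters, the replicate number as a block, offsets for transcript length and GC content (loess span 0.5), the 6 libraries alone, removal of genes that swing 8-fold between replicates, and leaving out libraries. On simulated data, the fit was tested and made 4 false calls among 85.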

Additional observations from a re-analysis of the deposited data

How the results depend on the processing

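The count of 0 called genes between strong-cloaked and non-cloaked cells held in edgeR under RLE or total-count scaling, both other filters, non-robust estimation, length and GC offsets, without swinging genes and without weak-cloaked replicate 1. It was 2 in the 6 libraries alone (SVIL and MVB12A), 0 to 1 as each library was left out (C1orf74 without strong-cloaked replicate 1, UTRN without non-cloaked replicate 1), and 15 with DESeq2 (817 at an unadjusted p below 0.05), which gave 35 genes no adjusted p. Against untransfected cells, strong-cloaked cells had 2776 called genes, 4202 with DESeq2, 4191 without weak-cloaked replicate 1 and 728 to 4191 as libraries were left out; non-cloaked cells had 1195, 2968 with DESeq2, 3107 without weak-cloaked replicate 1 and 119 to 3107 as libraries were left out. The cause was not tested; a left-out replicate also leaves fewer samples, and untransfected replicates were added to this step after the data were seen.

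Across genes, samples with the same replicate number did not deviate together (correlations -0.0754, -0.0356 and -0.0143). Smaller sets of genes differed from each other in this. The list medians of replication-dependent histones and of immediate early genes were highest in replicate 3 of both groups. The median of beta-catenin targets was highest in non-cloaked replicate 3 and lowest in strong-cloaked replicate 3. The correlations therefore cannot show whether such samples share more than a number. With the replicate block, 0 genes were called between strong-cloaked and non-cloaked cells (702 at an unadjusted p below 0.05; 889 with length and GC offsets as well), 2958 in strong-cloaked and 1424 in non-cloaked cells against untransfected cells.

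Of the recomputed fold changes of named genes, 2071 kept their direction and their side of the threshold, 9 newly passed it and 16 turned sign, and 23 of 41 list medians turned sign under some alternative. With DESeq2, RNF123 (adjusted p = 0.000304), MVB12A (8.22e-05), SVIL (8.22e-05), DCAKD (0.0226), TMEM65 (0.0201), ARHGEF3 (0.0305) and MRE11 (0.0386) passed. The turned log2 values were, with total-count scaling, -0.0323 for EIF2AK2, -0.00435 for ATF3 and -0.00528 for FGB, and with length and GC offsets -0.0374 for EIF2AK2, or -0.0378 with the replicate block added. As libraries were left out, the sign also turned in CXCL2 (-2.84 to 0.19, without non-cloaked replicate 3), C2 (-1.58 to 0.32, the same library), H1-4 (-2.07 to 0.040, the same library), ABCC2 (-0.97 to 0.027, without non-cloaked replicate 1), TTR (-0.035 to 0.31, the same library), EIF2AK2 (-0.046 to 0.17, without replicate 3 of either group), ATF3 (-0.050 to 0.15, without non-cloaked replicate 1 or strong-cloaked replicate 3), FGB (-0.041 to 0.15) and HNF4A (-0.26 to 0.051), both without strong-cloaked replicate 3. With 3 replicates a group, most simulated differences of 1.5-fold and of 2-fold were missed, and genes near the detection limit had wide intervals.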

Other observations

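Below the level used for naming genes, a few scarce transcripts had some of the smallest p-values, and they are given as counts per library. CALCRL-AS1, an antisense transcript, had 3, 3 and 2 counts in strong-cloaked cells and 33, 39 and 95 in non-cloaked cells, the smallest p of all genes, with an adjusted p of 0.51 by edgeR (Benjamini-Hochberg) and 9.14e-05 by DESeq2. SMG1P2, a pseudogene related to the nonsense-mediated decay kinase SMG1, had 69, 55 and 46 counts in strong-cloaked cells and 19, 21 and 13 in non-cloaked cells (DESeq2 adjusted p = 0.0287). Its reads may be shared with near-identical copies. ZBED9, a gene derived from a transposon, had 61, 30 and 48 counts in strong-cloaked cells and 13, 10 and 7 in non-cloaked cells (DESeq2 adjusted p = 0.0305). Neither passed by edgeR.

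HMGN5, a nucleosome-binding protein on the X chromosome, had 389, 177 and 15 counts in strong-cloaked cells and 18, 12 and 10 in non-cloaked cells, so strong-cloaked replicate 3 stood near the non-cloaked level. It passed by DESeq2 (adjusted p = 0.00641) and not by edgeR. NKAIN3 had no count in any strong-cloaked library and 4, 8 and 11 counts in the non-cloaked ones, at least 7.64-fold lower with a floor of 3 counts over the group.

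In 4 equal bins of the tested genes by transcript length, by GC content or by mean level, the median log2 fold change stayed between -0.032 and 0.042, and between -0.019 and 0.041 across chromosomes.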
